A study of Bos taurus with 8 samples.

Results

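Prostaglandins made by the endometrium act in the bovine estrous cycle and in early pregnancy, and the genes followed here cover their synthesis, breakdown, transport and receptors, together with the oxytocin receptor. The 10 genes were PTGS1, PTGS2, PTGES, PTGIS, AKR1B1, HPGD, SLCO2A1, PTGER2, PTGER4 and OXTR, and every noncontrol probe that carried one of these symbols was taken, whatever its values. This gave 10 of 17428 gene symbols and 29 of the 43653 noncontrol probes on the array. Of these, 23 gave a signal well above background on 4 or more arrays and were tested, among 31108 tested probes in all, and every gene had at least 1 tested probe. The endometrium came from 8 cows. In 4 cows each uterine horn had received 25 mL of 5 mM methylglyoxal, a reactive dicarbonyl compound formed as a by-product of glycolysis, and in the other 4 cows the injection held 0 mM methylglyoxal. Both groups were injected on day 1, with standing estrus as day 0, and both were biopsied on day 7 in the horn ipsilateral to the ovary with the corpus luteum. The biopsies were of whole tissue, in which fewer cells of a type and less RNA per cell cannot be told apart.

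The cyclooxygenases PTGS1 and PTGS2 turn arachidonic acid into prostaglandin H2, from which terminal synthases make the single prostaglandins. In the ruminant endometrium, oxytocin acting on its receptor sets off pulses of prostaglandin F2α late in the cycle, which end the life of the corpus luteum. A biopsy on day 7 falls in the early luteal phase, before those pulses.

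The array carries probes of 60 bases, and the probes of a gene read different parts of its transcript. The files list coordinates of the bovine genome build HGSC Btau_3.1, and all sequences run 5′ to 3′ in the sense of the transcript. Of the 4 probes printed in full, those of HPGD and AKR1B1 were well above background on all 8 arrays and read low on 5 mM replicate 1, and those of PTGS1 and PTGS2 were at background throughout. The probes further downstream are shown by their first 30 bases.
HPGD, base 716, chr8:6728470-6728529, minus strand: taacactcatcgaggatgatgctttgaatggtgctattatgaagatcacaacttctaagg
AKR1B1, base 599, chr4:101757615-101757674, minus strand: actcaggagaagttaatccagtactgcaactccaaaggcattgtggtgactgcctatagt
PTGS1, base 625, chr11:96372317-96372376, minus strand: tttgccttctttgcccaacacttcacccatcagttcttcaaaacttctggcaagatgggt
PTGS2, base 597, chr16:65516536-65516595, minus strand: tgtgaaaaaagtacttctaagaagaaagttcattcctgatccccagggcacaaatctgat
PTGS2, base 3314, chr16:65512180-65512239, minus strand, first bases: tgttaaatatctgaatgactgaatctggga
OXTR, base 2146, chr22:18295234-18295293, plus strand, first bases: gattctcttcggagactgtctggcacaggc
PTGES is listed with a pair of probes at base 797 and the same coordinates, chr11:103800389-103800448 on the minus strand, which differ by A10C and A59C, counted from the 5′ end of the probe. The capital marks the base at position 10.
PTGES, base 797, probe with A: ttttggaacAtaacgaccttctgaatccag
PTGES, base 797, probe with C: ttttggaacCtaacgaccttctgaatccag
The base given with each probe is its start in the transcript as the file lists it. Of the 13 probes that start before base 1000, 6 were well above background on all 8 arrays, and of the 16 that start at or after base 1000, 15 were. The PTGS1 probe at base 625, both upstream PTGS2 probes at bases 597 and 807, the PTGER4 probe at base 346 and the SLCO2A1 probe at base 896 were well above background on no array. Their genes therefore rest on the downstream probes alone, and a level is not compared between probes.

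No probe of the 10 genes passed the test between 5 mM and 0 mM (limma, Benjamini-Hochberg adjustment over 31108 probes, lowest adjusted p = 0.913). The same held for all tested probes, of which 0 percent passed. At an unadjusted p under 0.05, 2 of the 23 probes stood out, against 1.91 percent of all tested probes, and these were HPGD at base 716 and PTGS2 at base 3314, both lower in 5 mM. In all, 15 of the 23 probes had a lower mean in 5 mM and 8 a higher one, while 46.9 percent of all tested probes had a lower mean in 5 mM. The median difference over the 23 probes was -0.12 on the log2 scale, against 0.021 over all tested probes. The probes of a gene share their samples and are not independent of each other.

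The arrays were alike in brightness, with a 75th percentile of 1032 to 1456 intensity units, and no spot was saturated. Between 68.3 and 73.2 percent of noncontrol probes were well above background. Cell type markers separated some arrays. All 13 tested epithelium markers of 14 listed were lower in 5 mM, and their summed level, in multiples of the 75th percentile, was 5.04 to 70.2 in 5 mM and 58.9 to 83.9 in 0 mM. The low value was that of 5 mM replicate 1, where EPCAM, an adhesion molecule of epithelia, had a log2 signal of -1.26, against 4.33 to 4.83 on the other 7 arrays. Summed smooth muscle markers, 13 of 13 tested and 12 of them higher in 5 mM, ranged over 65.6 to 655 in 5 mM and 44.9 to 311 in 0 mM. They were highest on 5 mM replicate 1 at 655, 5 mM replicate 3 at 405 and 0 mM replicate 1 at 311, with 44.9 to 93.7 on the other 5 arrays. Differences that moved with these arrays are therefore, for the genes named below, also given without 5 mM replicate 1 or without these 3 arrays. All log2 signals below are relative to the array's 75th percentile, and every difference is 5 mM minus 0 mM with its standard error (SE).

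PTGS2, the inducible cyclooxygenase, was lower in 5 mM on its single tested probe, by less than the adjusted test could separate. Its log2 signals at base 3314 were -3.24, -2.64, -3.44 and -2.57 in 5 mM replicates 1 to 4, and -2.75, -1.55, -1.98 and -2.60 in 0 mM replicates 1 to 4. The 0 mM arrays of replicates 2 and 3 lay above all others, while 0 mM replicates 1 and 4 fell among the 5 mM arrays, so the groups overlapped. The difference was -0.75 ± 0.32 (SE, 4 cows per group; 95 percent interval -1.50 to -0.0025), with a limma p of 0.0494 before adjustment and 0.913 after it. An exact two-sided permutation test over the 70 arrangements of the cows gave p = 0.143. The unadjusted limma p was under 0.05 in 8 of 22 settings with a test. Some alternative settings, such as other filters, alter the test and leave the difference as it was. The difference kept its sign under all 22 alternative settings and ranged from -0.93 to -0.40. It was -0.66 without 5 mM replicate 1 and -0.56 without the 3 arrays with the highest smooth muscle markers. PTGS2 moved with several marker lists. Over the 8 arrays its log2 signal correlated with the marker mean of smooth muscle at r = -0.81, of macrophages and dendritic cells at r = 0.76 and of T and NK cells at r = 0.75. Macrophage and dendritic cell markers, 10 of 10 tested, were lower in 5 mM, with a summed level of 7.79 to 18.4 in 5 mM and 9.62 to 32.9 in 0 mM. Of 10 T and NK cell markers 8 were lower in 5 mM, with a summed level of 7.24 to 8.33 in 5 mM and 7.58 to 9.73 in 0 mM. The part of these cells in the PTGS2 difference was not tested beyond leaving out those arrays.

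PTGS1, the cyclooxygenase that most cells express without induction, had a slightly higher mean in 5 mM. At base 2535 its log2 signals were -0.41, -1.29, -1.09 and -1.13 in 5 mM and -1.15, -1.63, -1.10 and -0.88 in 0 mM, replicates 1 to 4 in each group. The groups overlapped, and the highest value was that of 5 mM replicate 1. The difference was 0.21 ± 0.24 (limma adjusted p = 0.913), 0.020 without 5 mM replicate 1 and -0.0088 without the 3 arrays with the highest smooth muscle markers. The probe at base 1571 gave 0.34 ± 0.30 (limma adjusted p = 0.913), or 0.15 without 5 mM replicate 3 and 0.11 without the 3 arrays with the highest smooth muscle markers. Both probes are listed next to each other in the genome, at chr11:96356791-96356825 and chr11:96356831-96356890, although their transcript starts are far apart, and the first of these intervals covers 35 of the 60 bases of its probe. Their log2 signals correlated with r = 0.58 over the 8 arrays.

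**Figure D1:**
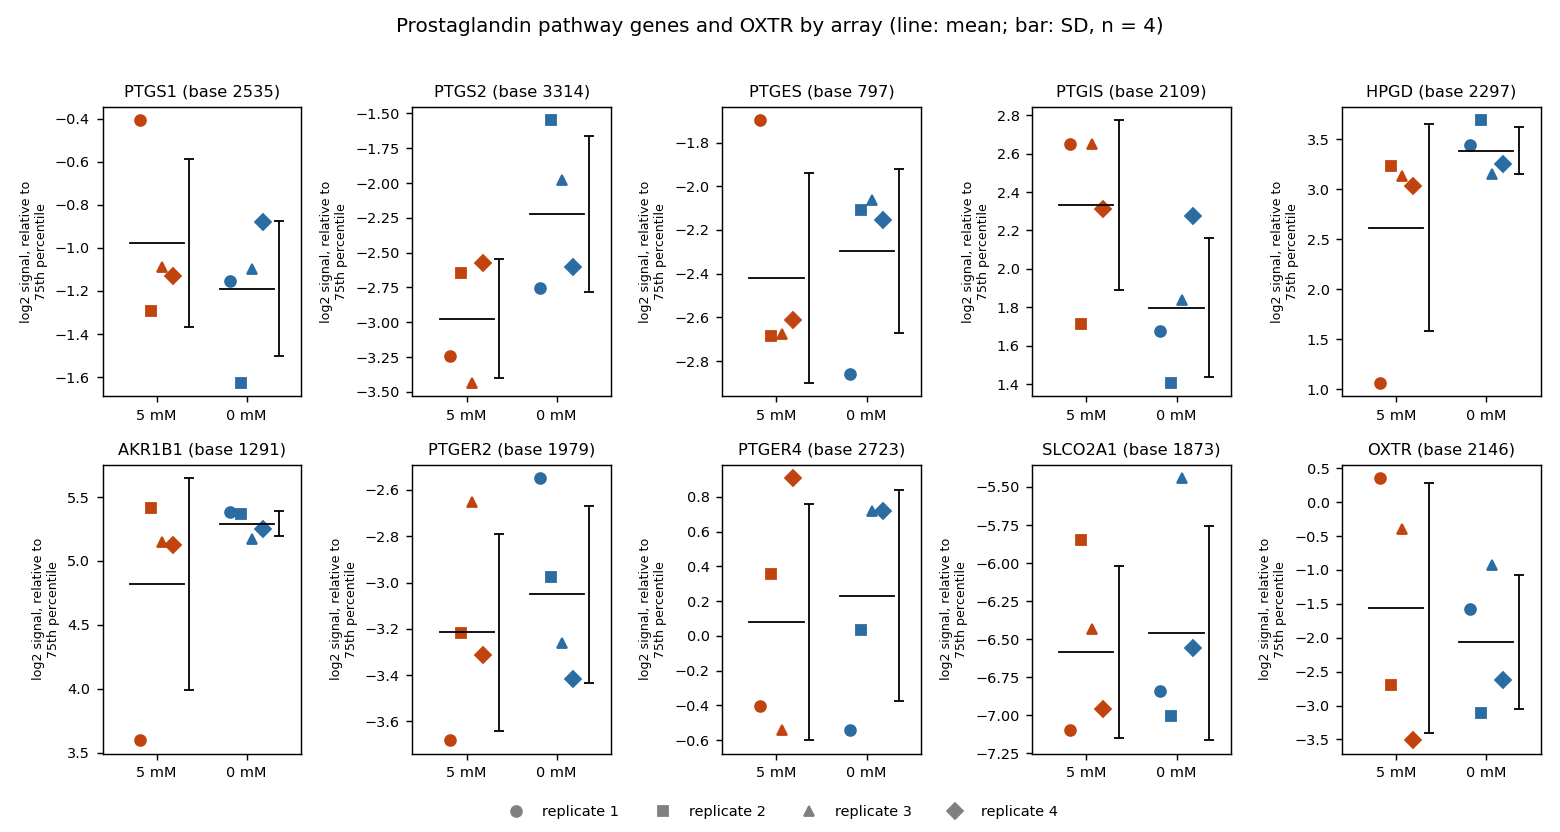
Log2 signal relative to the 75th percentile of the array (vertical axes, scaled separately) of 10 genes in 4 cows given 5 mM and 4 given 0 mM methylglyoxal, for the tested probe of each gene with the highest mean. Lines are means and bars SD; 5 mM replicate 1 (filled circle, left) lies at 1.07 for HPGD and 3.60 for AKR1B1, below every other array.

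PTGES, the microsomal prostaglandin E synthase that acts after PTGS2, did not separate the groups when all 8 arrays were used. The probe with A at base 797 read -2.15, -3.20, -3.02 and -3.07 in 5 mM and -3.52, -2.65, -2.50 and -2.19 in 0 mM, replicates 1 to 4 in each group. The highest of these came from 5 mM replicate 1 and the lowest from 0 mM replicate 1, while the other 3 arrays of 5 mM lay below the other 3 of 0 mM. The differences at base 623, base 797 with A and base 797 with C were -0.11 ± 0.30, -0.15 ± 0.34 and -0.12 ± 0.29, and their log2 signals correlated with each other at r = 0.84 to 0.97 over the 8 arrays. Between their 2 substitutions, both probes at base 797 share 48 bases in a row.

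The PTGES differences turned sign between slides. Within slide 1, which holds replicate 1 of both groups and so allows no test, the differences at base 623, base 797 with A and base 797 with C were 1.105, 1.37 and 1.16. Within slide 2 they were -0.59, -0.63 and -0.60, and within slide 3 -0.73, -0.86 and -0.49. Without the 3 arrays that had the highest smooth muscle markers, a setting chosen after the data were seen, they were -0.61, -0.69 and -0.54. The limma p-values of that setting were 0.0415, 0.0146 and 0.0123 before adjustment, and no probe of the array passed after it. It leaves replicates 2 and 4 of 5 mM and replicates 2, 3 and 4 of 0 mM.

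PTGIS, the prostacyclin synthase, had a higher mean in 5 mM on all 4 of its probes, none past the test. At base 2109, its brightest probe, log2 signals were 2.65, 1.71, 2.65 and 2.31 in 5 mM and 1.67, 1.41, 1.84 and 2.27 in 0 mM, replicates 1 to 4 in each group. The 5 mM arrays of replicates 1, 3 and 4 lay above all of 0 mM, and 5 mM replicate 2 lay below 2 of them. The difference was 0.53 ± 0.27 (95 percent interval -0.094 to 1.16), with a limma adjusted p of 0.913 and an exact two-sided permutation p of 0.114. The probes at bases 336, 1263 and 1594 gave 0.53 ± 0.48, 0.53 ± 0.34 and 0.48 ± 0.35. All 4 differences were smaller without 5 mM replicate 1, at 0.11, 0.25, 0.17 and 0.43 in order of position, and without the 3 arrays with the highest smooth muscle markers they were 0.17, 0.041, 0.091 and 0.17. The probe at base 336 read -0.67 and -1.92 in 5 mM replicates 1 and 3 and -1.64 in 0 mM replicate 1, the 3 arrays with the highest smooth muscle markers, against -3.11 to -2.40 on the other 5 arrays. The 3 probes further downstream did not order the arrays in this way, and pairs of the 4 probes correlated at r = 0.61 to 0.97 over the 8 arrays.

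AKR1B1, an aldose reductase that also acts as the main prostaglandin F synthase of bovine endometrium, was set apart by a single array. At base 599 its log2 signals were -0.12, 3.80, 3.01 and 3.77 in 5 mM and 3.08, 3.64, 2.86 and 3.09 in 0 mM, replicates 1 to 4 in each group. Only 5 mM replicate 1 was low, and the other 7 arrays lay between 2.86 and 3.80. The probes at bases 599, 1118, 1291 and 1296 gave differences of -0.55 ± 0.83, -0.57 ± 0.63, -0.47 ± 0.38 and -0.30 ± 0.35, none past the test. Without 5 mM replicate 1 they were 0.36, 0.12, -0.063 and 0.0093. That array had the lowest epithelium markers, whose part in the AKR1B1 values was not tested beyond leaving it out. The probes at bases 1291 and 1296 share 41 bases in a row and are not independent measurements, though they correlated only at r = 0.88 over the 8 arrays. The remaining probe, at base 23, carries the name in the file but did not follow the others: it was well above background on 1 array of 5 mM and 3 of 0 mM, its log2 signals of -6.99 to -5.61 correlated with theirs at r = -0.044 to 0.43, and its difference was -0.047 ± 0.28.

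HPGD, the 15-hydroxyprostaglandin dehydrogenase that inactivates prostaglandins, was lower in 5 mM on both probes, and at 1 of them the groups did not overlap. At base 716 its log2 signals were -0.97, 1.25, 0.89 and 1.03 in 5 mM and 1.46, 1.95, 1.79 and 1.56 in 0 mM, replicates 1 to 4 in each group. Every 5 mM array lay below every 0 mM array, with 5 mM replicate 1 far below the other 3. The means were 0.55 ± 1.03 in 5 mM and 1.69 ± 0.22 in 0 mM (SD, n = 4 each), a difference of -1.14 ± 0.47 (SE; 95 percent interval -2.22 to -0.062) or 0.453-fold. The limma p was 0.0406 before and 0.913 after adjustment, and the exact two-sided permutation p was 0.0286, the smallest that 4 against 4 allows. HPGD at base 716 was the only one of the 23 probes whose groups did not overlap. Among all probes with 8 values, 1.51 percent did not overlap, 0.512 percent with 5 mM lower.

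Leaving out 5 mM replicate 1 brought the HPGD difference at base 716 to -0.63, with an unadjusted limma p of 0.00745 and an adjusted p of 1.00. On the other 3 arrays of 5 mM the mean of the epithelium markers was 0.29 to 0.49, against 0.27 to 0.92 in 0 mM. Over the 7 arrays without 5 mM replicate 1, HPGD at bases 716 and 2297 correlated with the epithelium marker mean at r = 0.64 and 0.77, with that of T and NK cells at r = 0.73 and 0.69 and with that of B and plasma cells at r = 0.64 and 0.79. The part of these cells in the remaining difference was not tested. Within slides 1, 2 and 3 the difference was -2.44, -0.63 and -0.59. At base 2297 the log2 signals were 1.07, 3.23, 3.13 and 3.04 in 5 mM and 3.44, 3.69, 3.15 and 3.26 in 0 mM. Here 5 mM replicate 2 lay above 0 mM replicate 3, so the groups overlapped, and the remaining 5 mM arrays lay below all of 0 mM. The difference was -0.77 ± 0.47 (limma adjusted p = 0.913; exact two-sided permutation p = 0.0571), and -0.25 without 5 mM replicate 1. Both HPGD probes had a negative difference under all 22 alternatives, over -2.44 to -0.59 at base 716 and -2.37 to -0.17 at base 2297. Some of these alternatives, such as other filters, alter the test and leave the difference as it was. The probes correlated at r = 0.96 over the 8 arrays, a value that includes the low array.

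**Figure D2:**
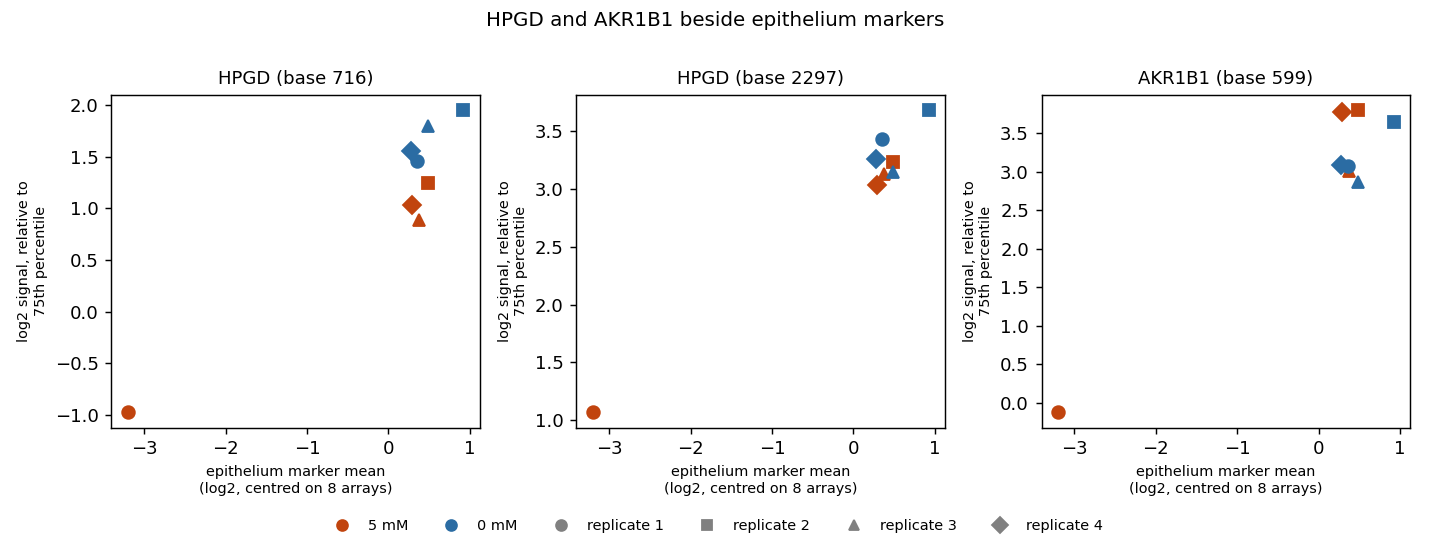
Log2 signal of both HPGD probes and of AKR1B1 at base 599 (vertical axes) against the mean of 13 epithelium markers on the same array (horizontal axis, log2, each marker centred on the 8 arrays), with 4 arrays of 5 mM and 4 of 0 mM. The array of 5 mM replicate 1 lies alone at a marker mean of -3.20, and the other 7 lie between 0.27 and 0.92.

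SLCO2A1, the prostaglandin uptake carrier, was near the detection limit. Its probe at base 1873 read -7.10, -5.85, -6.43 and -6.96 in 5 mM and -6.84, -7.00, -5.44 and -6.56 in 0 mM, replicates 1 to 4 in each group, and was well above background on 2 arrays of each group. The arrays of both groups interleaved. The difference was -0.12 ± 0.41, and 0.049 without 5 mM replicate 1.

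PTGER2 and PTGER4, the prostaglandin E2 receptors EP2 and EP4 that raise cyclic AMP, differed between the groups by less than the standard error on every tested probe. PTGER2 at base 1979 read -3.68, -3.22, -2.65 and -3.31 in 5 mM and -2.55, -2.97, -3.26 and -3.42 in 0 mM, replicates 1 to 4 in each group. The groups overlapped over most of their range, and the difference was -0.16 ± 0.27 (95 percent interval -0.79 to 0.46), or -0.0095 without 5 mM replicate 1. The PTGER2 probe at base 620 was well above background on 1 array of each group and was not tested. PTGER4 at base 2723 read -0.41, 0.36, -0.54 and 0.91 in 5 mM and -0.54, 0.03, 0.72 and 0.72 in 0 mM. Its 3 lowest arrays were 5 mM replicates 1 and 3 and 0 mM replicate 1, the 3 with the highest smooth muscle markers, and the same 3 were lowest at base 2284, with -2.36, -2.21 and -2.55, against -1.38 to -0.71 elsewhere. The differences at bases 2723 and 2284 were -0.15 ± 0.41 and -0.16 ± 0.52, and without these 3 arrays 0.14 and 0.17. Over the 8 arrays PTGER4 at bases 2723 and 2284 correlated with the smooth muscle marker mean at r = -0.78 and -0.88. With the marker mean of macrophages and dendritic cells it correlated at r = 0.87 and 0.92. The part of these cells in the PTGER4 values was not tested.

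OXTR varied more between cows than between groups. At base 2146 its log2 signals were 0.36, -2.70, -0.39 and -3.51 in 5 mM and -1.58, -3.11, -0.92 and -2.62 in 0 mM, replicates 1 to 4 in each group. The highest and the lowest value both belonged to 5 mM, and the spread over the 8 arrays was 3.87 on the log2 scale. The mean was -1.56 ± 1.84 in 5 mM and -2.06 ± 0.99 in 0 mM (SD, n = 4 each), a difference of 0.49 ± 0.91 (95 percent interval -1.61 to 2.60; limma adjusted p = 0.927). The probe at base 1723 gave 0.44 ± 0.93, and both probes correlated at r = 0.99 over the 8 arrays. Without 5 mM replicate 1 the differences at bases 2146 and 1723 were -0.15 and -0.17, and without the 3 arrays with the highest smooth muscle markers -0.89 and -0.84, so the sign turned.

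OXTR was high on those 3 arrays and also on 0 mM replicate 3, where the smooth muscle marker mean was -0.82, within the range of the other 4 arrays. By the summed level 0 mM replicate 3 was the highest of these 5, at 93.7, and ACTG2, a smooth muscle actin, read 2.31 there, against -0.25 to 0.86 on the other 4. PTGER3 and PTGFR were highest on the same 3 arrays and low on 0 mM replicate 3. PTGER3, the prostaglandin E2 receptor EP3, read 2.85, -3.94, 0.43 and -2.56 in 5 mM and -0.37, -4.02, -3.15 and -3.70 in 0 mM, a difference of 2.01 ± 1.51, or 0.79 without 5 mM replicate 1 and 0.37 without the 3 arrays. PTGFR, the prostaglandin F2α receptor, was singled out after its values were seen and was not tested, because it was well above background on 3 arrays. These were 5 mM replicates 1 and 3, at -0.017 and -3.15 at base 2159, and 0 mM replicate 1, at -3.52, against -9.17 to -8.65 on the other 5. The part of muscle in the OXTR values was not tested beyond the setting without those 3 arrays.

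**Figure D3:**
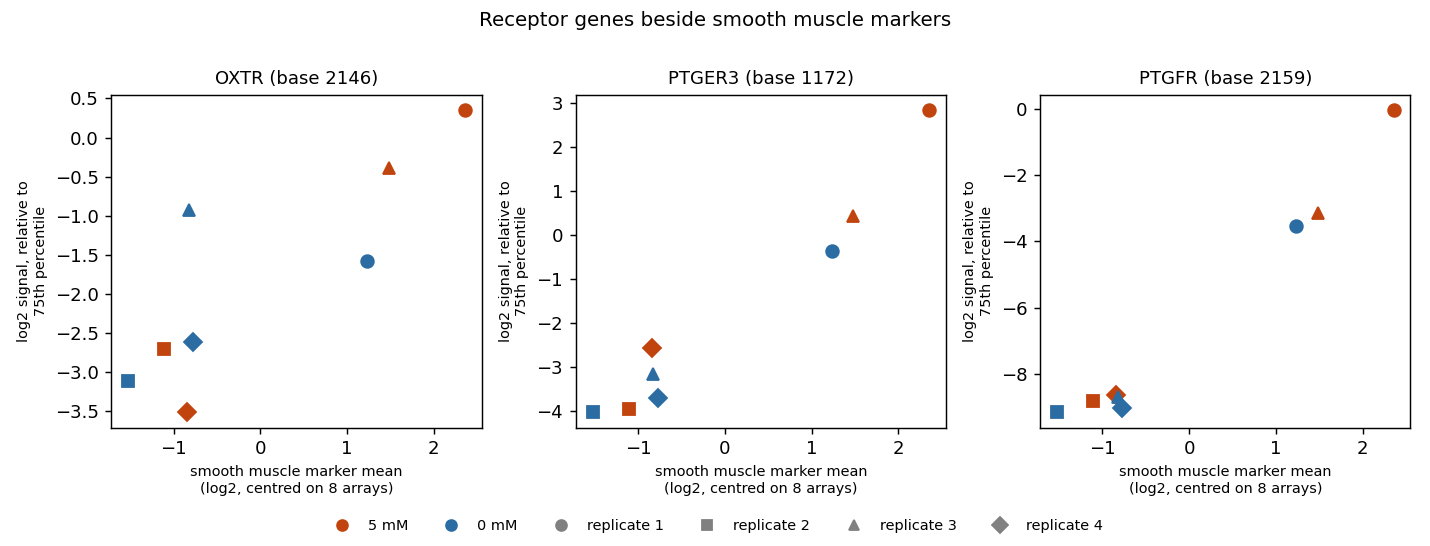
Log2 signal of OXTR, PTGER3 and PTGFR (vertical axes) against the mean of 13 smooth muscle markers on the same array (horizontal axis, log2, each marker centred on the 8 arrays), with 4 arrays of 5 mM and 4 of 0 mM. PTGFR is well above background on the 3 arrays at the right, and OXTR is also high on 0 mM replicate 3, at a marker mean of -0.82.

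**Figure D4:**
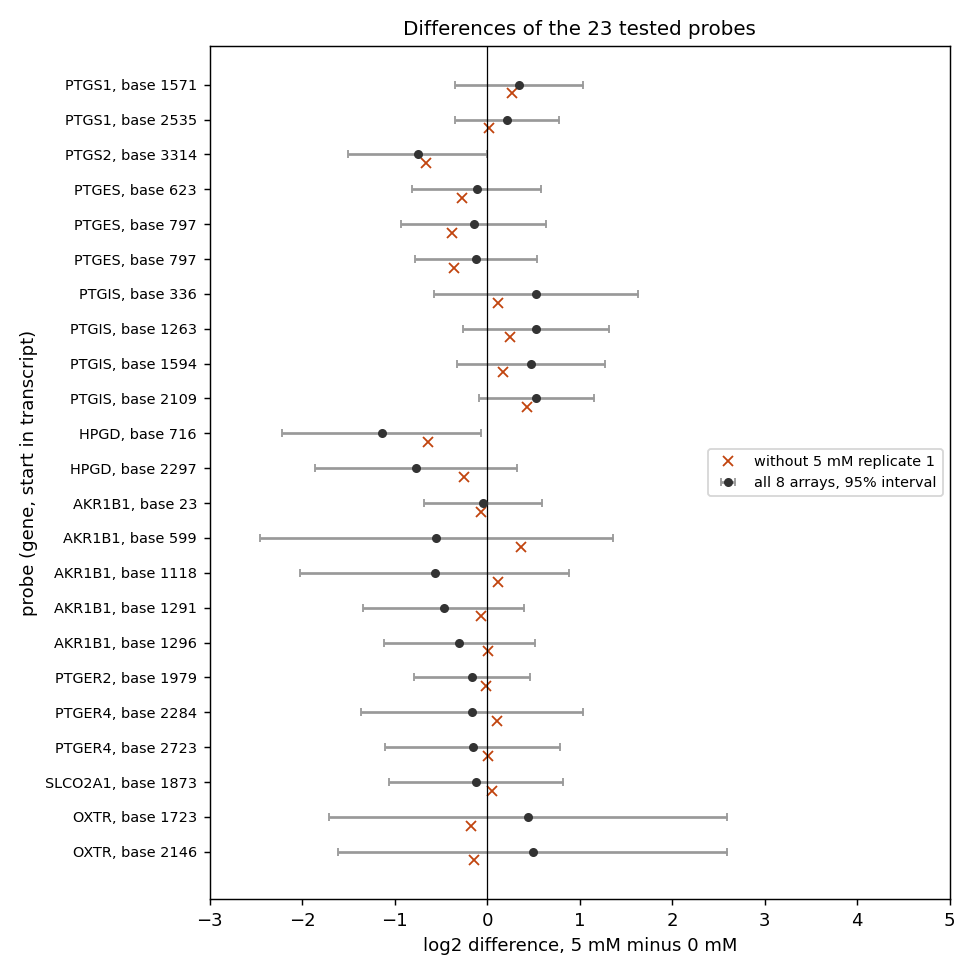
Log2 difference, 5 mM minus 0 mM, with its 95 percent interval for the 23 tested probes (horizontal axis), ordered by gene and position in the transcript (vertical axis). Crosses give the difference without 5 mM replicate 1; the intervals of HPGD at base 716 and PTGS2 at base 3314 end below 0, before any adjustment.

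The rest of the pathway was described with 7 gene lists holding 61 genes, of which 48 were tested, each on its brightest tested probe. None passed the test, and 1 had an unadjusted p under 0.05, against 1.99 percent of all 13081 genes tested in this way. In 5 mM, 27 of the 48 had a lower and 21 a higher mean, while 48.4 percent of all genes had a lower mean, and the median difference was -0.068, against 0.010 over all genes.

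Upstream of the cyclooxygenases, 6 genes listed around arachidonate release were tested, 2 higher and 4 lower in 5 mM, with a median of -0.24. ANXA1, at 0.046 ± 0.12, is counted among the higher genes but is not itself a releasing enzyme. PLA2G4A, the cytosolic phospholipase A2, differed by -0.81 ± 0.54. PLA2G10, a secreted phospholipase A2, read -4.26 in 5 mM replicate 1 and 2.26 to 4.91 on the other 7 arrays. Its difference was -1.68 ± 1.78, and 0.26 without that array. MGLL, the monoacylglycerol lipase, differed by -0.42 ± 0.49, and by 0.022 without 5 mM replicate 1, where it read -7.01, against -5.83 to -4.37 on the other 7. PLA2G4A was -0.98 without that array and -0.26 without the 3 arrays with the highest smooth muscle markers.

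Among 10 other synthases, 3 were higher and 7 lower, with a median of -0.15. PTGES3, the cytosolic prostaglandin E synthase, differed by 0.27 ± 0.17, PTGES2 by -0.29 ± 0.30, and the thromboxane synthase TBXAS1 by -0.52 ± 0.43. Leaving out 5 mM replicate 1 gave 0.14, -0.078 and -0.23. Of 5 breakdown genes beside HPGD, 4 were higher and 1 lower, with a median of 0.29. The prostaglandin reductases PTGR2 and PTGR1 differed by 0.33 ± 0.22 and 0.48 ± 0.40, and the carbonyl reductase CBR4 by -0.52 ± 0.40. These were, without 5 mM replicate 1, 0.22, 0.61 and -0.090, and CBR4 read -1.82 on that array, against -0.35 to 0.23 on the other 7. The CBR4 difference was 0.027 without the 3 arrays with the highest smooth muscle markers.

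Of 7 other receptors, 3 were higher and 4 lower, with a median of -0.21. After PTGER3, the lowest p belonged to the nuclear receptor PPARD, at -0.29 ± 0.23, and the thromboxane receptor TBXA2R, at 0.29 ± 0.25. The differences without 5 mM replicate 1 were -0.13 and 0.083, and TBXA2R was -0.14 without the 3 arrays with the highest smooth muscle markers. The 3 tested transporters were all lower. ABCC1, an export pump, differed by -0.75 ± 0.69, SLCO2B1 by -0.24 ± 0.36 and SLCO3A1 by -0.0014 ± 0.21. Without 5 mM replicate 1 these were -0.045, -0.094 and -0.11.

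In the list around oxytocin signalling, 7 of 8 genes were higher in 5 mM, with a median of 0.27. The 1 lower gene was OXT, oxytocin itself, at -0.43 ± 0.29. Among the higher ones, the vasopressin receptor AVPR1A and the progesterone receptor PGR were near 0, at 0.050 ± 0.33 and 0.081 ± 0.13. CD38 was 0.32 on its brightest probe and -0.11 on another tested probe. GNA11, a G protein subunit of the Gq family through which the oxytocin receptor signals, had log2 signals of 2.80, 2.34, 2.87 and 2.63 in 5 mM and 1.81, 2.43, 2.13 and 2.19 in 0 mM, replicates 1 to 4 in each group. Only 5 mM replicate 2 fell within the range of 0 mM. Its difference was 0.52 ± 0.19, with a limma p of 0.0240 before and 0.913 after adjustment. It was 0.47 without 5 mM replicate 1 and 0.23 without the 3 arrays with the highest smooth muscle markers. Over all settings it was lowest within slide 2, at 0.058, and highest within slide 1, at 1.00. ESR1, the estrogen receptor α, differed by 0.37 ± 0.21, and LNPEP, the oxytocinase, by 0.51 ± 0.31. Without 5 mM replicate 1, ESR1 was little changed, at 0.36, and LNPEP was smaller, at 0.23. Of 9 genes of the lipoxygenase branch, which makes leukotrienes from the same arachidonate, 2 were higher and 7 lower, with a median of -0.21. The leukotriene receptors CYSLTR2 and LTB4R differed by -0.49 ± 0.50 and 0.31 ± 0.42, and the lipoxygenase ALOX12 by -0.48 ± 0.66. The values without 5 mM replicate 1 were -0.28, -0.11 and 0.0019, so LTB4R and ALOX12 turned sign. ALOX12 was near the detection limit, well above background on 2 arrays of each group, and LTB4R was so on 3 of each.

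**Figure D5:**
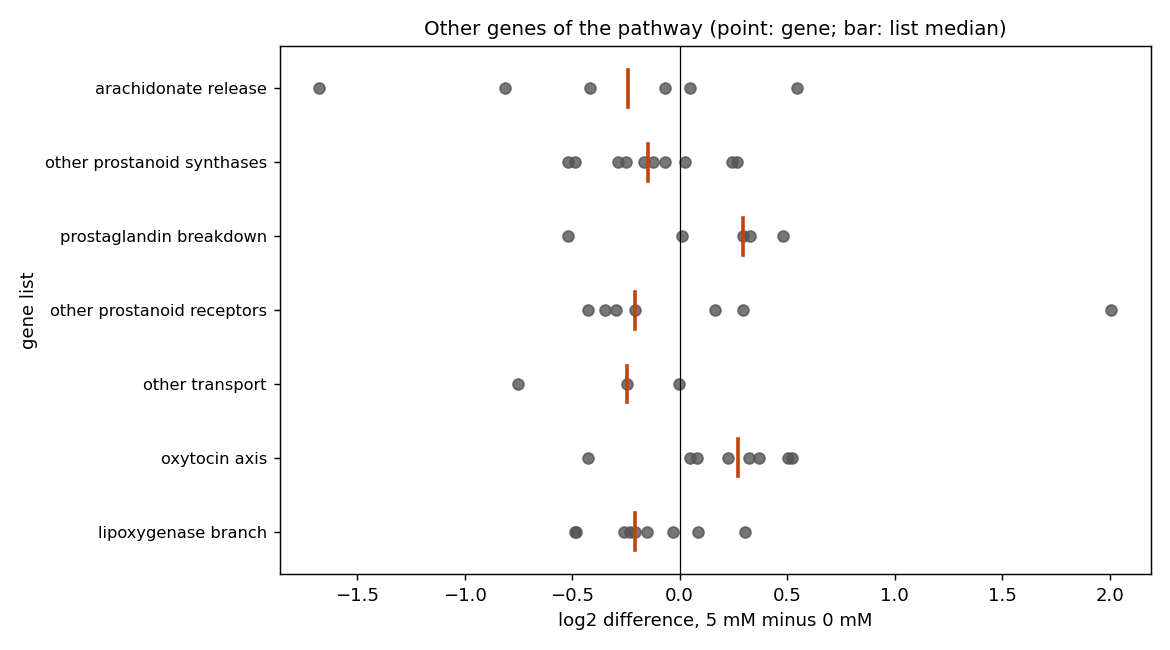
Log2 difference, 5 mM minus 0 mM (horizontal axis), of 48 other genes in 7 lists (vertical axis), each point a gene and each bar the median of its list. PLA2G10 at -1.68 and PTGER3 at 2.01 lie farthest from 0, and no gene passed the adjusted test.

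The genes most like each member over the 8 arrays, among 12416 genes with a symbol and complete values, were listed by Pearson's r as a description. These are the highest of 12416 values over only 8 arrays. High r therefore arises between unrelated genes too, and no r was tested. HPGD was most like KCNRG, TMEM45B and SEC11C (r = 0.997, 0.993 and 0.993), and AKR1B1 most like LSR, GAS8 and CAPSL (r = 0.997, 0.996 and 0.996). Without 5 mM replicate 1 these were 0.963, 0.903 and 0.884 for HPGD and 0.910, 0.890 and 0.875 for AKR1B1. PTGER4 was most like ASB9, OXA1L and MAP1LC3A (r = 0.992, 0.985 and 0.983), and PTGIS most like ERCC3, AKAP7 and SLC4A3 (r = 0.984, 0.983 and 0.968). PTGS1 was most like DIPK1B, TGM2 and ANKRD35 (r = 0.979, 0.977 and 0.976), and PTGS2 most like PSMA4, SLC35F5 and CD40 (r = 0.961, 0.957 and 0.946). PTGES was most like VPS18, VWA1 and SH2B3 (r = 0.956, 0.953 and 0.946), and PTGER2 most like HPN, ATP6V1G3 and SRSF10 (r = 0.961, 0.950 and 0.939). OXTR was most like GLCE, TMCO2 and LMNA (r = 0.956, 0.939 and 0.939), and SLCO2A1, at background on 4 of the 8 arrays, most like DDOST, CCL24 and TRIM59 (r = 0.948, 0.944 and 0.921).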

How the data were processed

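Endometrial RNA of 8 cows was measured on Agilent arrays of design 023647, labelled with Cy3 in a single-colour reaction with a Quick Amp kit, per the labels' protocols. The deposited intensity values are processed signals from which Feature Extraction had subtracted background and corrected spatial and multiplicative trends within each array, with no scaling across arrays, per the file headers. These headers name version 11.5.1.1, whereas version 10.5.1.1 stands in the submitters' processing notes. The authors' deposited value table holds log2 values. Its columns correlated at r of at least 0.9995 across probes with log2 intensities shifted to the 75th percentile and centred per probe and run in the same direction, which settles scale, centring and sign. The medians of its columns, in order of replicate, were 0.13, -0.0049, -0.011 and 0.013 in the 5 mM group and -0.016, -0.023, 0.00088 and -0.0062 in the 0 mM group. The table served as an alternative only.

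Control spots and outlier-marked spots were left out, spots of the same probe were averaged as log2 intensities, and the log2 of the 75th percentile of the array was subtracted. Probes with a signal well above background on 4 or more arrays were tested between the groups in limma 3.58.1 (lmFit, eBayes) in R 4.3.3, after a check on simulated data, with p-values adjusted over 31108 probes by Benjamini-Hochberg and called under 0.05. The intervals are 95 percent and the number of arrays limits the precision. The labels name a separate cow for every sample. Symbols came from the files, updated with a RefSeq table of assembly ARS-UCD2.0, and 34982 of the 43653 probes had a symbol. Exons and untranslated regions are not given, as no annotation of that genome build is used here. The members and the gene lists were chosen with earlier results of these data known. All members were named. Of each pathway list the 3 genes with the lowest unadjusted p were named, and of each member the 3 genes with the highest r, symbols beginning with LOC excepted. Of the pathway lists, PTGFR, ANXA1, OXT, AVPR1A, PGR and CD38 were named in addition.

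The arrays lay on 3 slides: replicate 1 of both groups was on slide 1, 5 mM replicate 2 and 0 mM replicates 2 and 3 were on slide 2, and 5 mM replicates 3 and 4 and 0 mM replicate 4 were on slide 3. Alternatives were array weights, eBayes with a trend and robust fitting, quantile normalization, normexp (offset 50), a shift to the median, other filters, the deposited table, slide and replicate blocks, gene means over probes, single slides and leaving out each cow. A fit without the 3 arrays highest in smooth muscle markers was chosen after seeing the data. Deviations from group means of arrays with the same replicate number correlated at r = 0.40, 0.36, -0.30 and 0.31 over 30839 probes. Arrays numbered 1, 2 and 4 share a slide across the groups, and those numbered 3 do not. Number and slide can therefore not be told apart for numbers 1, 2 and 4. On a shared slide with unlike numbers, 5 mM replicate 2 and 0 mM replicate 3 correlated at r = 0.30. Likewise, 5 mM replicate 3 and 0 mM replicate 4 correlated at r = -0.071. The parts of number and slide were not tested. As the labels name a separate cow for every sample, the numbers were not taken as pairs.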

Additional observations from a re-analysis of the deposited data

Results flagged for a closer look

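Within a group of 4 arrays, a value was singled out when its gap to the nearest other array, divided by the range of the group, exceeded Dixon's 95 percent critical value, which chance passes in about 1 in 20 groups. Of 106 groups of values examined, 11 were singled out, and in 9 of these the distant array was 5 mM replicate 1. The epithelium marker mean of that array was -3.20, against 0.29 to 0.49 on the other 5 mM arrays (gap over range 0.946), and its T and NK cell marker mean was -1.01, against -0.13 to -0.029 (0.892). The low values of the same array were HPGD at base 2297, at 1.07 with 3.04 as the nearest (0.91), HPGD at base 716, at -0.97 with 0.89 as the nearest (0.837), and AKR1B1 at bases 1118, 1291 and 1296, at 2.15, 3.60 and 3.72 with 4.63, 5.12 and 4.83 as the nearest (0.832, 0.84 and 0.836). Its high values were PTGES at base 797, on the probe with C, at -1.70 with -2.61 as the nearest (0.927), and PTGIS at base 1594, at 0.17 with -0.91 as the nearest (0.835). In 0 mM, replicate 1 was low for the same PTGES probe, at -2.86 with -2.15 as the nearest (0.887), and for ABCC1, at 0.13 with 1.08 as the nearest (0.904).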

How the results depend on the processing

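No member probe and no pathway gene passed the adjusted test under any alternative run, and 0 of all tested probes passed under any of them; at an unadjusted p under 0.05 limma called 376 to 1528 of all tested probes. The number of member probes at an unadjusted p under 0.05, 2 with all arrays, was 1 under quantile normalization, the median shift, array weights, no filter, eBayes with a trend and robust fitting and slide as a block, 0 under normexp and within slides 2 and 3, 4 without the 3 arrays with the highest smooth muscle markers, and 0 to 3 when single cows were left out, with 0 without 0 mM replicate 2 or 3. HPGD at base 716 was among them under 15 of 22 settings with a test, and PTGS2 under 8. The fit to the mean over the probes of a gene is not counted in these 22 settings. It left no member gene under the unadjusted threshold of 0.05. In that fit HPGD differed by -0.95 and PTGS2, with its single tested probe, by -0.75. Slide 1 alone allows no test.

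The count of pathway genes, 1 with all arrays, was 2 with slide as a block, 3 without the 3 arrays with the highest smooth muscle markers and 0 to 3 when single cows were left out. It was 1 with the mean over the probes of a gene. With the replicate number as a block it was 2, and the member count was again 2. Calls over all probes at an unadjusted p under 0.05 were then 1221 in place of 595, and 1026 with slide as a block. Not every array correlated best with its own number, and neither block changed an adjusted call.

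Of 504 member differences recomputed under 22 alternatives, 439 kept their sign. The other filters, eBayes with a trend and robust fitting and the replicate block leave the difference itself as it was. No sign could turn under them, and the deposited table moved the differences little. PTGS1 at base 1571, PTGS2, PTGIS at bases 336 and 2109 and both HPGD probes kept it throughout. Within slide 1 it turned for PTGES (1.105, 1.37 and 1.16) and PTGER4 (0.20 at base 2284 and 0.13 at base 2723). Within slide 2 it turned for AKR1B1 (0.32, 0.55, 0.27, 0.14 and 0.27 at bases 23, 599, 1118, 1291 and 1296), PTGER4 at base 2284 (0.088), SLCO2A1 (0.37) and OXTR (-0.53 at base 1723 and -0.69 at base 2146). Within slide 3 it turned for PTGS1 at base 2535 (-0.23), PTGIS at bases 1263 and 1594 (-0.29 and -0.34), AKR1B1 at bases 23, 599, 1118 and 1296 (0.023, 0.30, 0.0013 and 0.023) and PTGER2 (0.44). Without the 3 arrays with the highest smooth muscle markers it turned for PTGS1 at base 2535 (-0.0088), AKR1B1 (0.18, 0.59, 0.29, 0.0059 and 0.12 in order of position), PTGER4 (0.17 and 0.14) and OXTR (-0.84 and -0.89). Array weights turned AKR1B1 at bases 23, 599, 1118 and 1296 (0.027, 0.25, 0.043 and 0.00030) and OXTR (-0.24 and -0.20). Quantile normalization and the median shift turned AKR1B1 at base 23 (0.0072 and 0.0084), normexp turned it (0.044), PTGER4 at base 2284 (0.025) and SLCO2A1 (0.068), and slide as a block turned SLCO2A1 (0.016). The cause was not tested.

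With single cows left out, differences that turned ranged over -0.36 to 0.075 and -0.42 to 0.027 for PTGES at bases 623 and 797 with A, -0.24 to 0.22, -0.95 to 0.36, -0.88 to 0.12 and -0.51 to 0.0093 for AKR1B1 at bases 23, 599, 1118 and 1296, -0.35 to 0.0023 for PTGER2, -0.55 to 0.10 and -0.43 to 0.054 for PTGER4 at bases 2284 and 2723, -0.37 to 0.22 for SLCO2A1, and -0.17 to 1.06 and -0.15 to 1.14 for OXTR at bases 1723 and 2146.

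With 4 cows a group, probes at or near background limit what can be said of SLCO2A1 and of the upstream probes of PTGS1, PTGS2 and PTGER4.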
